A study of Mus musculus with 10 samples.

Results

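The 10 genes described here are the smooth muscle contractile genes Acta2, Actg2, Myh11, Myl9, Mylk, Cnn1, Tagln, Smtn, Lmod1 and Myocd, 10 of the 57185 genes with counts in the left ventricle of the mouse. They were taken by symbol and chosen by measured values, the counts of Acta2 and Cnn1 in the genotype contrast below, in which Acta2 was higher and Cnn1 lower. The values of all 10 genes in the contrast are therefore given as a description, and how many of them pass the threshold is counted once below without being read as a test. Polyadenylated RNA from the apical part of the ventricles was sequenced from 5 MLPKO and 5 cRADΔ/Δ-MLPKO male mice as 1 library per mouse. MLPKO animals carry no functional Csrp3, the gene of muscle LIM protein, and have dilated cardiomyopathy. In cRADΔ/Δ-MLPKO mice, labelled MLPKO-cRADKO, Rrad was in addition deleted in cardiomyocytes by the tamoxifen-induced MYH6-MerCreMer recombinase. Mice of both genotypes received tamoxifen once, at 10 weeks of age and 100 mg per kg. By the labels they were 16 weeks old and 1 month past tamoxifen when the tissue was taken. The MLPKO mice carried no Cre, so the recombinase and the loss of Rrad cannot be told apart, and no mouse with intact Csrp3 was in the comparison.

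Smooth muscle contracts when myosin heavy chain 11 pulls on smooth muscle actin filaments, after myosin light chain kinase has phosphorylated the regulatory light chain. Calponin and transgelin bind the actin filament, smoothelin and leiomodin associate with actin in differentiated smooth muscle, and myocardin, a cofactor of serum response factor (SRF), switches on genes with CArG boxes. In the heart these genes mark the smooth muscle cells of coronary arteries and, in part, pericytes, while Acta2 also marks activated fibroblasts and immature cardiomyocytes, and Myocd is active in cardiomyocytes as well. In RNA of whole tissue, fewer cells of a type and less RNA per cell cannot be told apart.

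Library totals ranged from 33457406 to 49965101 counts, with a median of 43738141. Normalized counts are raw counts scaled to a common library size with TMM factors, and log2 fold changes are cRADΔ/Δ-MLPKO over MLPKO, with their standard error (SE) from the edgeR fit over 13452 genes. Rrad, the gene deleted in cardiomyocytes, had normalized counts of 10849, 11065, 5774, 6751 and 11644 in MLPKO mice 1 to 5 and 8122, 5562, 8362, 6049 and 7258 in cRADΔ/Δ-MLPKO mice 1 to 5. The ranges overlapped and the change of -0.38 (SE 0.20) did not pass (edgeR adjusted p = 0.290), so Rrad did not separate the groups, which are those of the labels. The part of Rrad that was removed is not given in the sources used here. Csrp3 was counted in every mouse, from 28554 to 134784. Myh6, the myosin heavy chain of adult mouse cardiomyocytes, lay between 1050402 and 1662612 in all 10 mice.

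Promoter windows of the 250 bases before the start site are shown for Acta2, Myl9 and Cnn1, because the first pair varied together between mice of a genotype and Cnn1 did not vary with Acta2. RefSeq's table, on GRCm38.p6, holds 6 of the 10 genes (Acta2, Myl9, Cnn1, Smtn, Lmod1 and Mylk). Actg2, Myh11, Tagln and Myocd are not in it. Capitals mark the CArG box of SRF (a pair of C, 6 bases that are A or T, a pair of G, the same on both strands) and CArG-like sequences with 1 of the 6 middle bases G or C.
Acta2, chr19:34255374-34255623, minus strand: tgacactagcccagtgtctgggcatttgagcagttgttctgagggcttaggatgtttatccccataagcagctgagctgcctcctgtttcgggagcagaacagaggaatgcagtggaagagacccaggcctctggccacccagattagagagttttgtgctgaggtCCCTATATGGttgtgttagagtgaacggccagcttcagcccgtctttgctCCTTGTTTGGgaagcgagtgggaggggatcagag
Myl9, chr2:156775214-156775463, plus strand: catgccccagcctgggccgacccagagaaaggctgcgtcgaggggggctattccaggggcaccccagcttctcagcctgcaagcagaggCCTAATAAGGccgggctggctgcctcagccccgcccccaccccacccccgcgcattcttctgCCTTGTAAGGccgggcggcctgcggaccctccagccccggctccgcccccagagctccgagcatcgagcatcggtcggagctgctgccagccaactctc
Cnn1, chr9:22099003-22099252, plus strand: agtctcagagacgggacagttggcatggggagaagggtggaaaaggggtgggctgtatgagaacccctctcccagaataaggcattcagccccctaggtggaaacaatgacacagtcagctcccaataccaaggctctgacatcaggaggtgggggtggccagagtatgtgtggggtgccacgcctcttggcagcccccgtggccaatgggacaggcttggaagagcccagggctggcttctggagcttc
Acta2 held 2 CArG-like sequences, at 84 to 75 and at 34 to 25 bases before the start. Myl9 held 1 CArG box at 161 to 152 bases and 1 CArG-like sequence at 99 to 90 bases. Neither was found in the windows of Cnn1, Smtn, Lmod1 and Mylk. Of 32851 promoter windows in the table, 1.47% held a CArG box, 7.24% a CArG-like sequence and 0.548% at least 2 CArG-like sequences. The matches are letters in a window and no sign that SRF binds there.

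Acta2 (ENSMUSG00000035783, GRCm39 chr19:34217737-34232990, minus strand) encodes the actin of vascular smooth muscle. Its normalized counts were 3324, 3487, 1256, 2720 and 2912 in MLPKO mice 1 to 5 and 6541, 9400, 6912, 6141 and 3316 in cRADΔ/Δ-MLPKO mice 1 to 5. Mice 1 to 4 of cRADΔ/Δ-MLPKO lay above every MLPKO mouse, and mouse 5, at 3316, lay within the MLPKO range. Means were 2740 ± 885 and 6462 ± 2170 (MLPKO and cRADΔ/Δ-MLPKO, SD, n = 5 each), a log2 fold change of 1.24 (SE 0.29), or 2.36-fold. With any 1 mouse left out the log2 fold change stayed between 1.06 and 1.41. Of the bases in its exons, 9.33% lie opposite exons of Stambpl1, whose log2 fold change was 0.06. No stretch of 50 bases of its main transcript occurs in those of Acta1, Actc1, Actb or Actg2, and 7 such stretches occur in that of Actg1.

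Actg2 (ENSMUSG00000059430, chr6:83489887-83513551, minus strand) encodes the actin of visceral smooth muscle and was counted little. Raw counts were 30, 66, 17, 22 and 45 in MLPKO and 16, 8, 26, 38 and 10 in cRADΔ/Δ-MLPKO, in mouse order. The groups overlapped, MLPKO mouse 2 was the highest of the 10 mice, and the log2 fold change of -0.93 (SE 0.54) ranged from -1.24 to -0.42 as each mouse was left out. Actg2 thus stood on the other side of 0 from Acta2, the other smooth muscle actin.

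Myh11 (ENSMUSG00000018830, chr16:14012399-14109236, minus strand) encodes the smooth muscle myosin heavy chain, the motor of the contractile filament. It had normalized counts of 2080, 2832, 1448, 1695 and 2467 in MLPKO and 1930, 1804, 2875, 2241 and 1714 in cRADΔ/Δ-MLPKO. The ranges nearly coincided, with means of 2104 ± 561 and 2113 ± 470 (SD, n = 5 each) and a log2 fold change of 0.01 (SE 0.19). Myl9 (ENSMUSG00000067818, chr2:156617084-156623579, plus strand), the regulatory light chain that the kinase phosphorylates, had 720, 1043, 467, 628 and 816 in MLPKO and 960, 1200, 1132, 945 and 617 in cRADΔ/Δ-MLPKO. Mice 2 and 3 of cRADΔ/Δ-MLPKO lay above all MLPKO mice and mouse 5 was low, as for Acta2, with a log2 fold change of 0.40 (SE 0.21). Mylk (ENSMUSG00000022836, chr16:34565580-34822790, plus strand), the kinase itself, ranged from 770 to 1009 in MLPKO and from 870 to 1266 in cRADΔ/Δ-MLPKO. The groups overlapped and the log2 fold change was 0.23 (SE 0.11). The 3 genes of the motor and its switch thus lay between 0.01 and 0.40, below the 1.24 of Acta2.

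Cnn1 (ENSMUSG00000001349, chr9:22010512-22020926, plus strand) encodes calponin 1, which holds back the myosin ATPase on the actin filament. Its normalized counts were 182, 2249, 335, 342 and 213 in MLPKO and 240, 89.1, 212, 111 and 86.0 in cRADΔ/Δ-MLPKO. MLPKO mouse 2 stood far above the other 9 mice, and without it the 4 MLPKO mice, at 182 to 342, overlapped the cRADΔ/Δ-MLPKO mice. The log2 fold change was -2.17 (SE 0.70) with all mice and -0.87 without MLPKO mouse 2. Leaving out any other mouse gave values down to -2.42. Exons of Elof1 on the opposite strand cover 35.1% of the exon bases of Cnn1 (961 of 2736), and the log2 fold change of Elof1 was 0.06. Whether counting used strand is not given in the sources used here, and the part of this overlap in the Cnn1 count was not tested.

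Tagln (ENSMUSG00000032085, chr9:45840909-45847404, minus strand) encodes transgelin, an abundant actin-binding protein of smooth muscle, and was almost uncounted. Raw counts were 9, 8, 6, 13 and 8 in MLPKO and 4, 12, 11, 2 and 11 in cRADΔ/Δ-MLPKO, so it did not pass the filter on low counts and no fold change is given. Of its exon bases, 66.7% (1364 of 2044) lie opposite exons of Gm48529 and Pcsk7, against 0% for Actg2, Myh11 and Lmod1. These genes took 69 and 7174 raw counts over the 10 mice, against 84 for Tagln, and the part of the overlap in the low count was not tested.

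Smtn (ENSMUSG00000020439, chr11:3467520-3490612, minus strand), smoothelin, ranged from 2746 to 4200 in MLPKO and from 3791 to 4633 in cRADΔ/Δ-MLPKO. MLPKO mouse 2, the highest mouse for Cnn1 and Actg2, was the lowest of all mice for Smtn, and the log2 fold change was 0.24 (SE 0.10). Lmod1 (ENSMUSG00000048096, chr1:135252509-135295907, plus strand), leiomodin 1, which nucleates actin filaments, had 109, 178, 106, 163 and 161 in MLPKO and 198, 160, 314, 195 and 135 in cRADΔ/Δ-MLPKO. Its groups overlapped and cRADΔ/Δ-MLPKO mouse 3 was the highest, as it was for Myh11 and Mylk, with a log2 fold change of 0.48 (SE 0.23). Myocd (ENSMUSG00000020542, chr11:65067387-65160828, minus strand), the SRF cofactor that drives contractile genes in smooth muscle, had 1821 to 2355 in MLPKO and 1615 to 2125 in cRADΔ/Δ-MLPKO. The log2 fold change of Myocd was -0.08 (SE 0.09), from -0.12 to -0.01 as each mouse was left out.

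**Figure D1:**
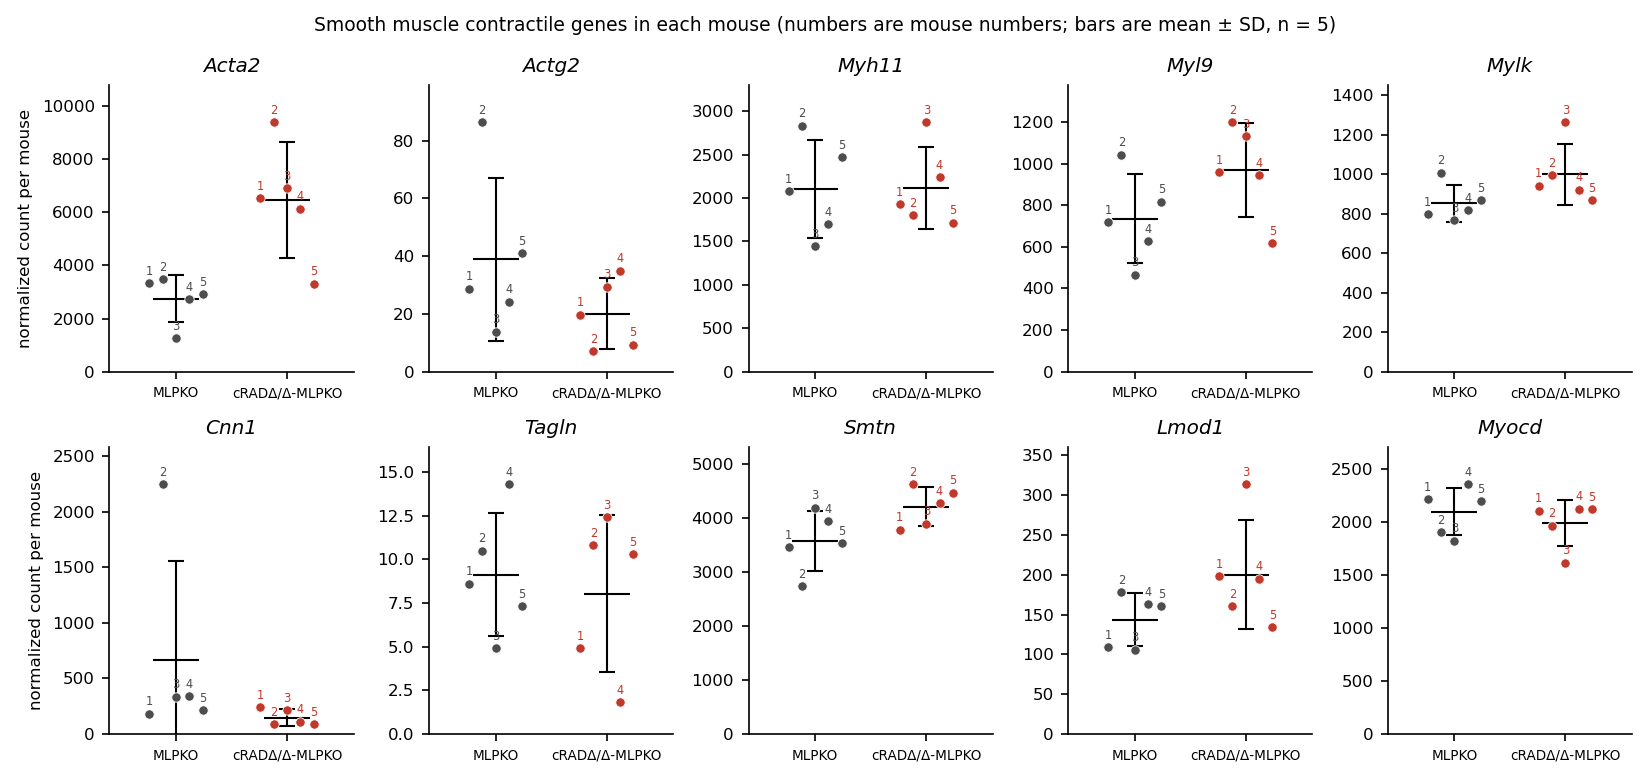
Normalized count (vertical axis, linear from 0) of each of the 10 genes in every mouse, with MLPKO in grey and cRADΔ/Δ-MLPKO in red, mouse numbers beside the points and the mean ± SD of 5 mice as bars, of which the lower bar of Cnn1 is cut at 0. Mice 1 to 4 of cRADΔ/Δ-MLPKO stand above all MLPKO mice for Acta2, 1 MLPKO mouse at 2249 carries the mean of Cnn1, and Myh11 and Myocd have nearly the same range in both groups.

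All 10 genes overlapped between the groups in normalized counts, where 6.61% of all 13452 genes did not overlap. Of the 9 genes in the fit, 6 were higher and 3 lower in cRADΔ/Δ-MLPKO by sign, and their median log2 fold change was 0.23, against 0.01 over all genes. One of the 9, Acta2, passed an adjusted p under 0.05 in edgeR, beside 2.74% of all genes (0.944% higher and 1.8% lower), and Acta2 alone passed in DESeq2, beside 9.65% of all genes. The rule used this contrast, so nothing is read from these counts. Acta2 did not pass with limma-voom, nor without MLPKO mouse 1 or 5 or without any 1 of cRADΔ/Δ-MLPKO mice 1 to 4. DESeq2 gave no adjusted p for Cnn1.

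**Figure D2:**
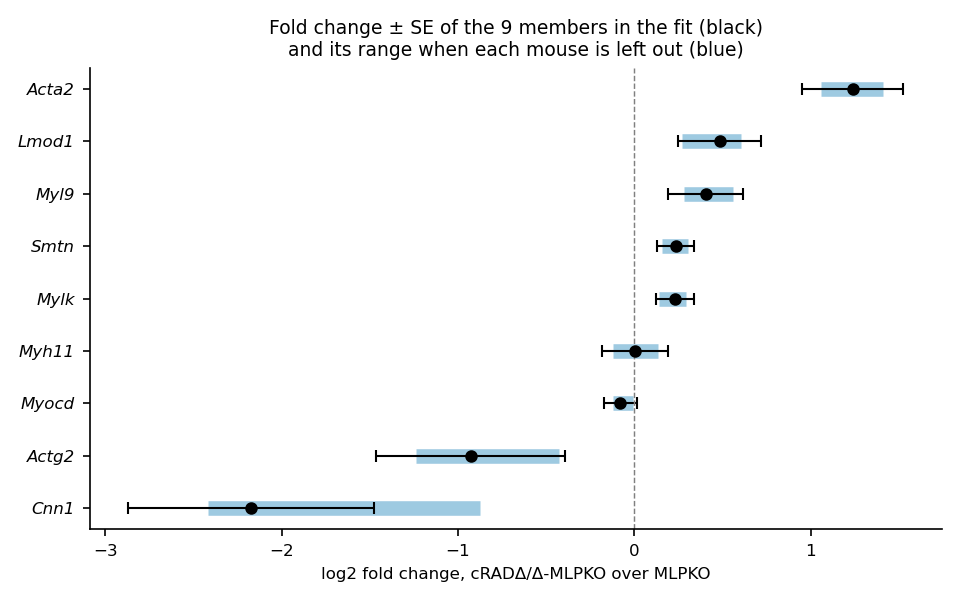
Log2 fold change of the 9 genes in the fit (horizontal axis, cRADΔ/Δ-MLPKO over MLPKO; black points with SE) and the range of the estimate when each of the 10 mice is left out (blue bars). Acta2 stays between 1.06 and 1.41, and Cnn1 moves from -2.42 to -0.87.

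As a level per length (CPM per kilobase of exon), Acta2 and Smtn were the most abundant of the 10 transcripts in MLPKO, at 20.5 ± 6.63 and 19.4 ± 3.01 (SD, n = 5), and did not differ beyond their spread. Myl9 (7.75 ± 2.27), Myocd (7.12 ± 0.766), Myh11 (6.70 ± 1.79) and Cnn1 (5.87 ± 7.86) followed, with no neighbour apart from the next by more than the spread, and below them came Mylk (1.83 ± 0.202), Lmod1 (0.848 ± 0.198), Actg2 (0.424 ± 0.309) and Tagln (0.108 ± 0.0420). The steps from Smtn to Myl9 and from Mylk to Lmod1 were the ones larger than the spread. In cRADΔ/Δ-MLPKO the level per length of Acta2 was 48.4 ± 16.3, apart from Smtn at 22.9 ± 1.97 by mean ± SD although mouse 5, at 24.9, lay within the Smtn range. Myl9 (10.2 ± 2.38), Myocd (6.74 ± 0.739) and Myh11 (6.73 ± 1.50) kept their places, Cnn1 (1.31 ± 0.645) now came after Mylk (2.15 ± 0.334) within the spread of both, and Lmod1 (1.19 ± 0.406), Actg2 (0.220 ± 0.133) and Tagln (0.0954 ± 0.0529) remained last. There the steps larger than the spread were those from Acta2 to Smtn, Smtn to Myl9, Myl9 to Myocd, Myh11 to Mylk and Lmod1 to Actg2. With the longest transcript as the length, Smtn came before Acta2 (24.5 and 23.8) and Myocd before Myl9 (9.87 and 9.59) in MLPKO, and the step from Myl9 to Myocd in cRADΔ/Δ-MLPKO (12.7 ± 2.95 and 9.35 ± 1.02) was within the spread.

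The other actins give a scale for Acta2. Per length, the sarcomeric actins Acta1 and Actc1 stood at 3128 ± 1345 and 1821 ± 448 in MLPKO and at 1091 ± 605 and 1477 ± 470 in cRADΔ/Δ-MLPKO (SD, n = 5 each), and the cytoplasmic actin Actb at 96.2 ± 9.51 and 107 ± 7.05. Acta2 was 0.493%, 0.402%, 0.212%, 0.554% and 0.372% of the summed level per length of the 6 actin genes in MLPKO mice 1 to 5 and 1.48%, 3.21%, 1.85%, 1.77% and 0.850% in cRADΔ/Δ-MLPKO mice 1 to 5. These shares did not overlap, and the share has both a higher Acta2 and a lower Acta1 in it.

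Relative to Myh11, which takes out changes common to both genes, Acta2 also separated the groups. The ratio of normalized counts, not per length, of Acta2 to Myh11 was 1.60, 1.23, 0.867, 1.61 and 1.18 in MLPKO and 3.39, 5.21, 2.40, 2.74 and 1.94 in cRADΔ/Δ-MLPKO. Every cRADΔ/Δ-MLPKO mouse was above every MLPKO mouse, including mouse 5, whose Acta2 count alone was within the MLPKO range, and the log2 difference of the ratio was 1.22. This held with Myh11 as the denominator. MLPKO mouse 1 had more Acta2 (3324) and less Mylk (798.8) and Lmod1 (109) than cRADΔ/Δ-MLPKO mouse 5 (3316, 869.5 and 135). Ratios of Acta2 to Mylk or to Lmod1 therefore overlap between the groups. The Myl9 to Myh11 ratio ranged from 0.322 to 0.371 in MLPKO and from 0.360 to 0.665 in cRADΔ/Δ-MLPKO, with cRADΔ/Δ-MLPKO mouse 5 alone within the MLPKO range. The Cnn1 to Myh11 ratio ranged from 0.0865 to 0.794 and from 0.0493 to 0.124, and overlapped. Both ratios of Acta2 and Cnn1 use the values by which the genes were chosen and are given without a test.

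**Figure D3:**
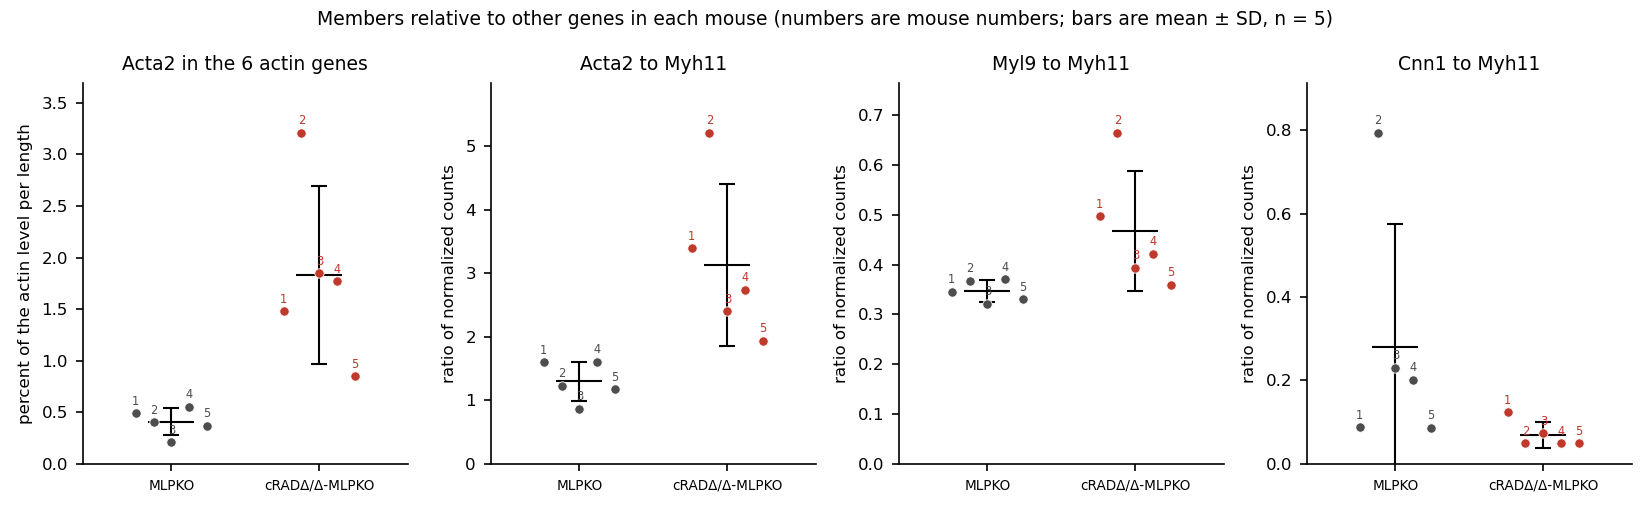
Acta2 as a percent of the summed level per length of 6 actin genes, and the ratio of normalized counts of Acta2, Myl9 and Cnn1 to Myh11, in each mouse (linear axes from 0; MLPKO grey, cRADΔ/Δ-MLPKO red, bars mean ± SD, n = 5, cut at 0). The 2 measures of Acta2 do not overlap between the groups, while Myl9 and Cnn1 to Myh11 do.

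Between mice of the same genotype the genes did not vary as 1 block. Correlations were taken over the 10 mice after the mean of each genotype was removed from log2 CPM, and are given as a description with no p. All genes of a pair come from the same libraries. The median Pearson r of the 36 pairs of genes was 0.478, and 0.236 without MLPKO mouse 2. Acta2 and Myl9 had the highest, r = 0.915 (Spearman correlation 0.927), and r = 0.682 without MLPKO mouse 3 and cRADΔ/Δ-MLPKO mouse 5, the mice farthest from the median of Acta2. Both of those mice were low in both genes. Actg2 and Myh11 gave r = 0.882 (Spearman 0.891), and r = 0.784 without the 2 mice farthest from the median of Actg2. Lmod1 and Mylk gave r = 0.850 (Spearman 0.879), and r = 0.635 without the 2 mice farthest from the median of Mylk. Acta2 and Cnn1, the pair that differed in direction between the genotypes, had r = 0.220, and -0.079 without MLPKO mouse 2. Smtn had a negative r with every other gene but Myocd, with r = -0.830 to Actg2 (Spearman -0.782; -0.645 without the 2 mice farthest from the median of Smtn) and -0.807 to Myh11.

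**Figure D4:**
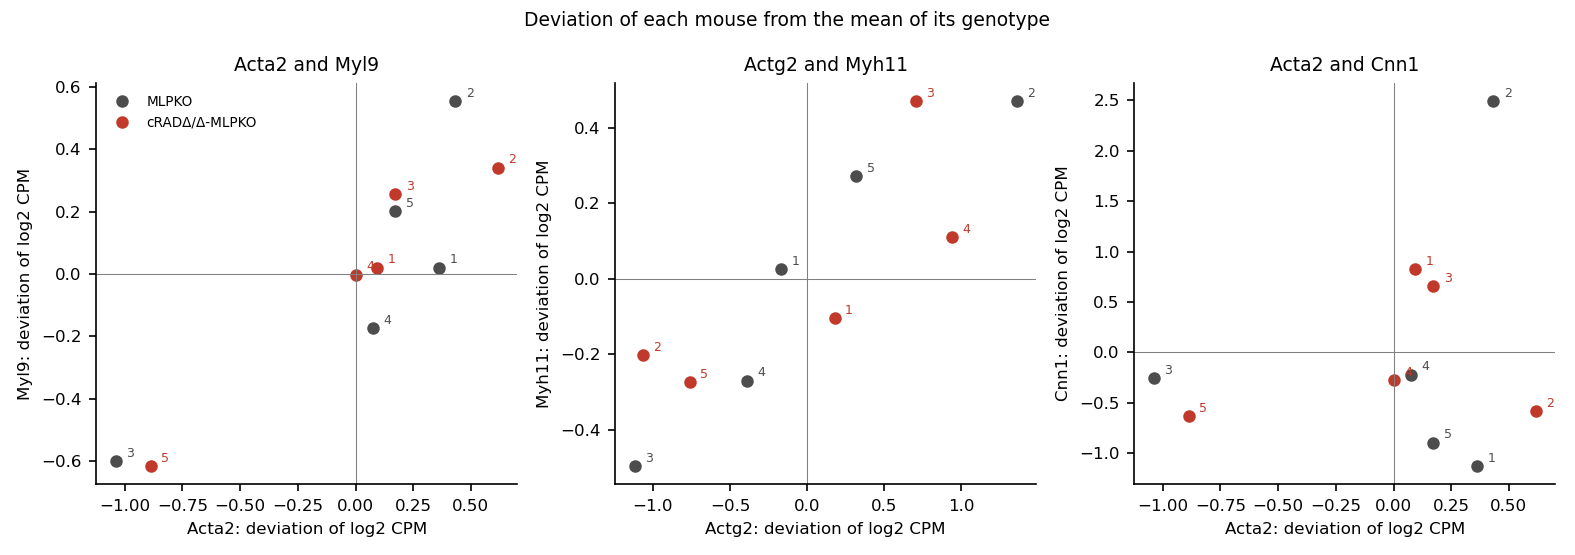
Deviation of log2 CPM of each mouse from the mean of its genotype (both axes) for Acta2 and Myl9, Actg2 and Myh11, and Acta2 and Cnn1, with MLPKO in grey, cRADΔ/Δ-MLPKO in red and mouse numbers beside the points. The first pair follows a line (r = 0.915), whose lower end is MLPKO mouse 3 and cRADΔ/Δ-MLPKO mouse 5, and the last pair does not (r = 0.220), with MLPKO mouse 2 at the top for Cnn1.

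The genes outside the group whose pattern within genotypes was most like that of Acta2, among all genes kept and over 10 mice, were Dcdc2b (r = 0.924), Sdf2l1 (0.909), Map7d2 (0.907), Peg10 (0.905) and Tmem30a (0.904). Those most like Cnn1 were Wnt9a (r = 0.973), Fbl (0.970), Pcgf2 (0.968), Kcne4 (0.966) and Gnal (0.960). Without MLPKO mouse 2 the likeness to Cnn1 of these 5 genes was between 0.862 and 0.932. None of the 10 passed between the genotypes, with log2 fold changes from -0.66 to 0.36. These are the highest correlations among all genes kept, over 10 mice, and are given as an order only.

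The rule did not use the partners, regulators and paralogs of the group, and these were tested. The lists were written with earlier results of these data known, so the number of their genes that passed is no independent test. Of 26 proteins that work with the 10 genes in contraction, 3 fell and none rose in the main edgeR fit, with a median log2 fold change of -0.08. In DESeq2 7 passed, not all of them lower, where 9.65% of all genes passed. Gucy1a1 was higher, at 0.33 (SE 0.09, DESeq2 adjusted p = 0.0219). Desmin (Des), the intermediate filament of muscle, had 113552 to 211211 in MLPKO and 78686 to 98456 in cRADΔ/Δ-MLPKO, with no overlap, and fell by 0.78 on the log2 scale (SE 0.15, edgeR adjusted p = 0.0247). Vinculin (Vcl), which ties actin to adhesion sites, fell by 0.45 (SE 0.08, edgeR adjusted p = 0.0216), also with no overlap between the groups. Des and Vcl are also active in cardiomyocytes.

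Of 20 regulators that act with or against SRF and myocardin, 1 fell and none rose in the main edgeR fit, with a median of 0.04. It was Prrx1, a homeobox factor of mesenchymal cells that binds with SRF, from 3044 to 4866 in MLPKO to 2314 to 2492 in cRADΔ/Δ-MLPKO (fell by 0.54 on the log2 scale, SE 0.12, edgeR adjusted p = 0.0369). In DESeq2 5 of the 20 passed, among them Klf4 and Csrp2, which were higher, at 0.35 (SE 0.09) and 0.51 (SE 0.14). Their DESeq2 adjusted p was 0.0142 and 0.0165. Klf4 also passed in edgeR with upper quartile factors and without MLPKO mouse 2. Fhl2 and Fhl1, LIM proteins of muscle and the most abundant of these 20, had log2 fold changes of 0.01 (SE 0.09) and -2.09 (SE 0.55, edgeR adjusted p = 0.0609) and did not pass. Fhl1 passed in DESeq2 (adjusted p = 0.0389). It also passed in edgeR without cRADΔ/Δ-MLPKO mouse 1, which stood at 37814 against 10498 to 12010 in the other 4, and without MLPKO mouse 4 (edgeR adjusted p = 0.0372 and 0.0347). Fhl2 was of the other sign without MLPKO mouse 2 or 3 or cRADΔ/Δ-MLPKO mouse 1.

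Of 20 paralogs of the 10 genes, 18 were in the main edgeR fit, where 1 fell and none rose, with a median of -0.12. In DESeq2 5 passed, all of them lower, where 9.65% of all genes passed. Acta1, skeletal muscle actin, which the diseased heart expresses again, had 447908, 789613, 419575, 219094 and 525346 in MLPKO and 331378, 152451, 116114, 118771 and 118783 in cRADΔ/Δ-MLPKO. It fell by 1.52 on the log2 scale (SE 0.36, edgeR adjusted p = 0.0493), with cRADΔ/Δ-MLPKO mouse 1 above the lowest MLPKO mouse, so that the paralog Acta1 and the smooth muscle actin Acta2 had changes of opposite sign. Acta1 did not pass with upper quartile factors (adjusted p = 0.0503), the filter of edgeR or Gm and Rik genes kept, nor without any 1 mouse other than MLPKO mouse 4 or cRADΔ/Δ-MLPKO mouse 1, while its log2 fold change ranged from -1.92 to -1.27 over the mice left out. Actc1, cardiac actin and the other abundant paralog, had a log2 fold change of -0.30 (SE 0.23, edgeR adjusted p = 0.489).

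Over the 3 lists, 5 of 64 genes in the fit passed in edgeR, all lower, where 2.74% of all genes passed and 1.8% passed as lower. Nothing is read from this count, as the lists were written with earlier results known. In DESeq2 17 passed, in both directions, where 9.65% of all genes passed. The median of the 64 genes was -0.02 and 32 were higher and 32 lower by sign. The 5 became 0 without MLPKO mouse 5 or any 1 of cRADΔ/Δ-MLPKO mice 3, 4 and 5, 1 without MLPKO mouse 1 or cRADΔ/Δ-MLPKO mouse 2, and 11 without MLPKO mouse 4.

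**Figure D5:**
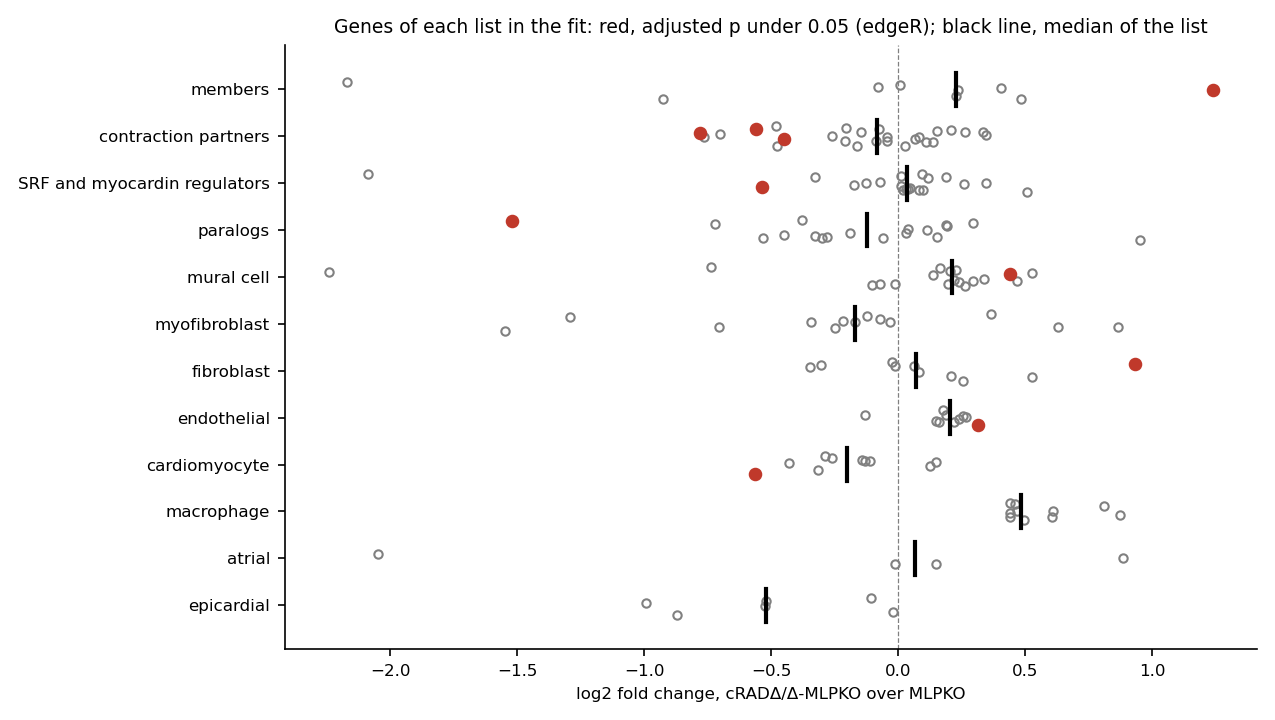
Log2 fold change (horizontal axis, cRADΔ/Δ-MLPKO over MLPKO) of every gene in the fit in each list, with genes at an edgeR adjusted p under 0.05 in filled red, the others as open circles and the median of a list as a black line; points are spread vertically for view. The group of 10 spans from -2.17 to 1.24, macrophage markers lie between 0.44 and 0.88, and epicardial markers between -0.99 and -0.02. The medians of the other lists lie between -0.20 and 0.23.

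Markers of the cells that could carry these transcripts are given beside the group. Over all 13452 genes and in either direction, 2.74% passed in edgeR, 9.65% passed in DESeq2 and 2899 genes had an unadjusted p under 0.05. The groups did not overlap in 6.61% of all genes. Of 18 mural cell genes (smooth muscle and pericytes) 13 were higher and 5 lower by sign, with a median of 0.21. In either direction 1 passed in edgeR, 5 in DESeq2 and 8 at an unadjusted p under 0.05. The largest change of the list was a fall, that of Map3k7cl at -2.24 (SE 0.60, DESeq2 adjusted p = 0.0127), and Cspg4 had -0.74 (SE 0.28). Both lean on MLPKO mouse 2. It stood at 1463 for Map3k7cl, against 165 to 490 in the other MLPKO mice, and at 4845 for Cspg4, against 1427 to 2417. The summed normalized count of the list was 39736 to 48293 in MLPKO and 47672 to 52598 in cRADΔ/Δ-MLPKO. Rgs5, a pericyte gene, rose from 12003 to 16056 in MLPKO to 16990 to 21341 in cRADΔ/Δ-MLPKO (log2 fold change 0.44, SE 0.09, edgeR adjusted p = 0.0319), and Abcc9 had 0.14 (SE 0.13). Of 13 myofibroblast genes none passed in edgeR (1 in DESeq2, 2 at an unadjusted p under 0.05), the median was -0.17, and the summed count was 30949 to 99228 and 28402 to 53101. By the mean over all mice its most abundant genes were Col3a1, at 0.37 (SE 0.20), and Ccn2, at -1.29 (SE 0.65). The place of Ccn2 rests on MLPKO mouse 2, the mouse highest in Cnn1, which stood at 41418 against 3126 to 13598 in the other MLPKO mice. Col1a1, named after its values were seen, had the higher median in both groups and a log2 fold change of -0.17 (SE 0.24). The part of these cells in the values of Acta2 and Cnn1 was not tested.

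Of 10 fibroblast genes 1 rose, Dpt, by 0.93 on the log2 scale (SE 0.12, edgeR adjusted p = 0.00665). By sign 6 of the 10 were higher and 4 lower, with a median of 0.07. The abundant Gsn and Dcn had 0.26 (SE 0.09) and 0.08 (SE 0.12), and the summed count was 81973 to 109053 and 86982 to 124899. Of 10 endothelial genes 1 rose, Tek, by 0.32 (SE 0.05, edgeR adjusted p = 0.0196), while Kdr and Cdh5 had 0.27 (SE 0.08) and 0.16 (SE 0.07), and the summed count was 37749 to 44840 and 45113 to 51183, with no overlap. In DESeq2 2 of the fibroblast and 3 of the endothelial genes passed, and 3 and 7 had an unadjusted p under 0.05 in edgeR. Of 10 macrophage genes none passed in edgeR, but all 10 were higher at an unadjusted p under 0.05 and 5 passed in DESeq2. Over all 13452 genes, 2899 had such a p in either direction and 9.65% passed in DESeq2. The macrophage median was 0.48, with Lyz2 at 0.81 (SE 0.23) and Csf1r at 0.44 (SE 0.14), and the summed count was 8639 to 12648 and 10515 to 22459. Of 10 cardiomyocyte genes 1 fell, Tnnt2, by 0.57 (SE 0.09, edgeR adjusted p = 0.0184), while Myh6 and Atp2a2 had -0.29 (SE 0.09) and 0.15 (SE 0.08), and the summed count was 3469003 to 3753392 and 2649167 to 3419546, again with no overlap (3 passed in DESeq2, 5 at an unadjusted p under 0.05). None of 4 atrial and none of 6 epicardial genes passed in edgeR (1 and 2 at an unadjusted p under 0.05, 0 and 1 in DESeq2). All 6 epicardial genes were lower by sign, with a median of -0.52. Of the 4 atrial genes 2 were higher and 2 lower by sign, with a median of 0.07. The summed atrial count was 5450 to 101385 and 7309 to 18780, most of it Nppa (4385 to 100657 and 6042 to 17720). Nppa had -2.05 (SE 0.72) and Stard10 -0.01 (SE 0.23), while Myl4 and Myl7 had 0.88 (SE 0.68) and 0.15 (SE 0.68). For Myl4 (810) and Myl7 (188), cRADΔ/Δ-MLPKO mouse 1 was the highest of all mice. The summed epicardial count was 891 to 1908 and 678 to 1466, with Upk3b at -0.52 (SE 0.24) and Msln at -0.87 (SE 0.33). Rgs5 did not pass without any 1 mouse other than MLPKO mouse 2 or 4 (edgeR adjusted p up to 0.0765), Tek did not pass without MLPKO mouse 5 (0.0546) and Tnnt2 did not pass without cRADΔ/Δ-MLPKO mouse 5 (0.0590). No gene of these lists had 3 or fewer counts in every mouse.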

How the data were processed

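The deposited values are raw counts per gene, not normalized, which the authors made with STAR on GRCm39 and featureCounts. Settings for strand, read pairs and reads shared by several genes are not given in the sources used here. Counts of 1 to 20 were even in 73.7% to 80.3% of cases per library, so a count may be of reads rather than read pairs, and low counts and the filter may rest on fewer fragments than they read. This was not tested. Of the 60676 genes in the table, 3491 held no value in any mouse and were left out. Names, positions and exon overlaps are those of GENCODE M39, which holds 56629 of the other 57185 genes. The labels give an age of 16 weeks and the study 3.5 months.

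A gene entered the fit if over 10 counts were found in 6 or more of the 10 mice and it was not named Gm or Rik, the filter of the authors, and 13452 genes did. Genotypes were compared with TMM and the quasi-likelihood test of edgeR 4.0.16 (R 4.3.3), adjusted by Benjamini-Hochberg over these genes, with a threshold of 0.05. The fit was tested on simulated counts. DESeq2 1.42.0, the tool of the authors, limma-voom (limma 3.58.1), RLE and upper quartile factors, other filters, the mouse number as a block and each library left out were alternatives. Log2 CPM used a prior count of 2. The 10 genes and all lists were chosen with earlier results of these data known. Named beside the 10 genes are Rrad and Csrp3, the called genes of each list (up to 4, except 1 contraction partner that is not reported here), the 2 most abundant where fewer than 2 were called, and the 5 genes most like Acta2 and Cnn1. Elof1, Stambpl1, Pcsk7 and Gm48529 are named for their overlap with exons. Col1a1, Map3k7cl, Cspg4, Klf4, Csrp2, Gucy1a1, Myl4 and Myl7 were named after their values were seen. Mouse numbers are shared by the genotypes but belong to different animals, and were not used to pair the mice in the main fit. Depth limits the precision of the lowest counts, and the spread between 5 mice per group that of the rest.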

Additional observations from a re-analysis of the deposited data

Results flagged for a closer look

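In 98 groups of 5 mice (the 10 genes and those the naming rule picks, in each genotype), 11 held a mouse whose gap to the nearest other was above the 95% critical value of Dixon's test. Chance flags about 1 in 20 independent groups, but these groups share mice and some genes were picked by these values. The 11 are therefore given as a description. MLPKO mouse 2 was the high mouse in 7 of the 11. Its normalized count of Cnn1 was 2249, where the next MLPKO mouse had 342, that of Prrx1 4866 against 3282, that of Fhl1 175604 against 65699, and that of Ccn2 41418 against 13598. It was also high for 3 of the genes most like Cnn1, at 795 for Wnt9a (next 464), 173 for Kcne4 (next 88.1) and 74.7 for Gnal (next 26.9). These 3 were picked because they vary with Cnn1, and Ccn2 was named through a mean that MLPKO mouse 2 carries. Their flags are not independent of that choice. In cRADΔ/Δ-MLPKO, mouse 1 was high for Des (98456, next 83938), for Fhl1 (37814, next 12010) and for Acta1 (331378, next 152451), and mouse 2 for Ccn2 (8577, next 4851). Of the smooth muscle contractile genes, Cnn1 was the one flagged.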

How the results depend on the processing

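The edgeR test passed 369 of 13452 genes, 127 higher and 242 lower (2899 at an unadjusted p under 0.05). With upper quartile factors 382 passed, 175 higher and 207 lower, so the split moved while the median of all genes stayed within 0.035. DESeq2 passed 1298 genes, 17 of the partners, regulators and paralogs (5 in edgeR) and 20 of the cell type markers (4 in edgeR). With each mouse left out, 47 to 826 genes passed overall (47 without MLPKO mouse 5, 50 without cRADΔ/Δ-MLPKO mouse 5, 826 without MLPKO mouse 4), with 0 to 11 of the partners, regulators and paralogs, 2 to 14 of the markers and 0 to 1 of the smooth muscle contractile genes. Acta2, the 1 that passed, did not pass with limma-voom (0 passed) or in the edgeR fit with the mouse number as a block (0 passed). The fit with the replicate block passed 281 genes, 4 of the partners, regulators and paralogs. Deviations of mice with the same number correlated at -0.044 to 0.152, and not every mouse was most like its own number. These correlations showed no pairing by number and cannot exclude one.

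The log2 fold changes of the smooth muscle contractile genes moved by less than the spread between mice under every alternative run, except that of Cnn1. It was -0.87 without MLPKO mouse 2 (range -2.42 to -0.87 with each mouse left out). That spread is between single mice, and leaving out 1 mouse seldom moves a fold change so far, so staying within it shows little. Within it, Actg2 went from -0.928 to -0.424 without MLPKO mouse 2. Cnn1 went from -2.17 to -1.51 with limma-voom and to -1.48 with the mouse number as a block. Small values changed sign in Myh11 (0.01 with all mice, -0.122 to 0.136 with each mouse left out) and in Fhl2, Dcn and Stard10, none of which passed. Fhl2 became -0.0349 and -0.0153 without MLPKO mice 2 and 3, and -0.0287 without cRADΔ/Δ-MLPKO mouse 1 (0.0713 at most, without MLPKO mouse 5). Dcn became -0.000609 without cRADΔ/Δ-MLPKO mouse 1 (0.161 at most, without MLPKO mouse 2). Stard10 became 0.00954 with upper quartile factors, 0.111 and 0.020 without MLPKO mice 3 and 5, and 0.131 and 0.0082 without cRADΔ/Δ-MLPKO mice 1 and 3 (-0.163 at the lowest, without MLPKO mouse 2). The causes were not tested.

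Leaving out mice for the likeness, the pairs and the ratios, and the search for CArG-like sequences, were chosen after seeing the data. The log2 differences of the Acta2 and Cnn1 ratios to Myh11 are between group means. Leaving out a single mouse cannot move them beyond the spread between mice, so staying within it shows nothing. For Acta2 the difference was 1.22 with all mice and 1.02 to 1.38 with each mouse left out. For Cnn1 it was -1.59 with all mice, -1.88 without MLPKO mouse 1 and -1.08 without MLPKO mouse 2. The likeness of Pcgf2 to Cnn1 (0.968) was 0.106, and that of Tmem30a to Acta2 (0.904) was -0.109, when the genotype mean was kept in. Tagln and Actg2, at 2 to 66 raw counts per mouse, are where depth limits a comparison most.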
